A study of Mus musculus with 6 samples.

Results

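Transcripts of 35 genes of the lysosome were described in sorted mouse pituitary cells, comprising 12 lysosomal hydrolases, 8 lysosomal membrane, activator and regulator genes and 15 genes of the vacuolar proton pump. The genes were chosen by name, and a gene with several transcript rows was represented by the row whose mean over the libraries was highest. All 35 had a row among the 22869 genes with a symbol, and all 35 passed the filter on low values that left 11642 genes for testing. The pituitaries were those of females of a CD1 x C57BL/6 hybrid strain, 6 to 8 weeks old, without any treatment or engineered allele named in the labels. Sorting by FACS (fluorescence-activated cell sorting) gave somatotropes, which secrete growth hormone, and lactotropes, which secrete prolactin. Each cell type had 3 libraries of amplified polyA RNA, numbered 1 to 3, and the unit was FPKM, fragments per kilobase of transcript, scaled by the mapped fragments of the library. In the columns of somatotropes 2 and 3 and lactotrope 3, 34.0%, 32.2% and 26.2% of the rows carried an additional decimal that was always 5, and 0.0% did in the other 3 columns. No label or header says what the decimal marks. The sources used here give neither the gate of the sort nor the number of mice behind a replicate, and p-values therefore measure only the spread between these libraries.

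The lysosome is the acidic compartment in which proteins, glycogen, glycans and lipids are broken down. Its soluble hydrolases are made in the endoplasmic reticulum and most are delivered through mannose 6-phosphate tags, and they work best at low pH. That acidity is set by the vacuolar proton pump, which couples ATP hydrolysis by its cytosolic V1 sector to proton transport through its membrane-embedded V0 sector. In endocrine cells the same pump acidifies the hormone granules, and lysosomes take up and degrade surplus granules, a process described first in prolactin cells. Many lysosomal genes carry in their promoters a palindrome around CACGTG that is recognised by TFEB, a transcription factor of lysosome formation.

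That palindrome is shown for 5 of the genes, chosen from hydrolases, membrane genes and pump subunits, because it is the promoter sequence known for this pathway. RefSeq promoter windows (GRCm38.p6, 250 bases before to 50 bases after a start site) were matched by symbol for 30 of the 35 genes. Atp6v1b2, Atp6v1h, Atp6v1c1, Ctsb and Atp6v1g1 had no entry in the table used. CACGTG stood in a window of 13 of the 30 genes and of 8.09% of all 27025 genes in the table. TCACGTGA, which contains it, stood in 8 of the 30 and in 1.12% of all genes. The 8 were 3 of 11 matched hydrolases (Ctsa, Ctsd and Gla), 2 of 8 membrane, activator and regulator genes (Cln3 and Mcoln1) and 3 of 11 matched pump genes (Atp6v0d1, Atp6v0e and Atp6v1a). Both words read the same on both strands, so 1 search covers both. A match is a description of the letters and not evidence of a bound site. The stretches below end at or before the annotated start site and are written 5′ to 3′ on the strand of the gene, with TCACGTGA in capitals. They lie at chr2:164833720-164833772 (+ strand, Ctsa), chr7:142387879-142387966 (− strand, Ctsd), chr7:126583311-126583398 (− strand, Cln3), chr8:3500433-3500518 (+ strand, Mcoln1) and chr16:44139344-44139431 (− strand, Atp6v1a).
Ctsa: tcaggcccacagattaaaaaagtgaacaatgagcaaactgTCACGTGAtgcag
Ctsd: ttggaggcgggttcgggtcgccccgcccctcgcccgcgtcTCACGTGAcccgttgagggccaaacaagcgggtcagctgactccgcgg
Cln3: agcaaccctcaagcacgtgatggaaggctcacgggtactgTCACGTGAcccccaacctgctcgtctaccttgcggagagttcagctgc
Mcoln1: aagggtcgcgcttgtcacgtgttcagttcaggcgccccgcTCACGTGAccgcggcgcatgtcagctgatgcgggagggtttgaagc
Atp6v1a: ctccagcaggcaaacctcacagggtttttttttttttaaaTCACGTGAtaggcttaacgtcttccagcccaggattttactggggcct

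The hormone genes matched the labels in direction. For Gh the FPKM values were 84909, 19384 and 43379 in the somatotrope libraries and 3954, 6856 and 7623 in the lactotrope libraries, in the order of replicates 1 to 3 that is kept throughout. For Prl they were 10464, 8709 and 24481 in somatotropes and 195325, 25171 and 148913 in lactotropes, so each cell type also held much of the other hormone's transcript. Neither gene passed the test described below (limma, adjusted p = 1.00). Libraries differed in ways the cell types do not explain. The 2 libraries numbered 1 had higher FPKM for most genes, with a median over all genes tested of 1.00 on the log2(FPKM + 1) scale above the mean of replicates 2 and 3. The share of tested genes with a value of 0 was 14.9% in lactotrope 3 and 0.232% to 2.95% elsewhere. Leukocyte markers, from a list of 23 with a row that was led by Cd74 and H2-Ab1, summed to 443 FPKM in somatotrope 1 and 1270 in lactotrope 1, and to between 5014 and 20011 FPKM in the other 4 libraries. Cd3e and Cd79a, which mark T and B cells, stayed at or below 1.18 FPKM in all 6 libraries. The number of fragments behind the FPKM values was not used here, so no counting interval is given.

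**Figure D1:**
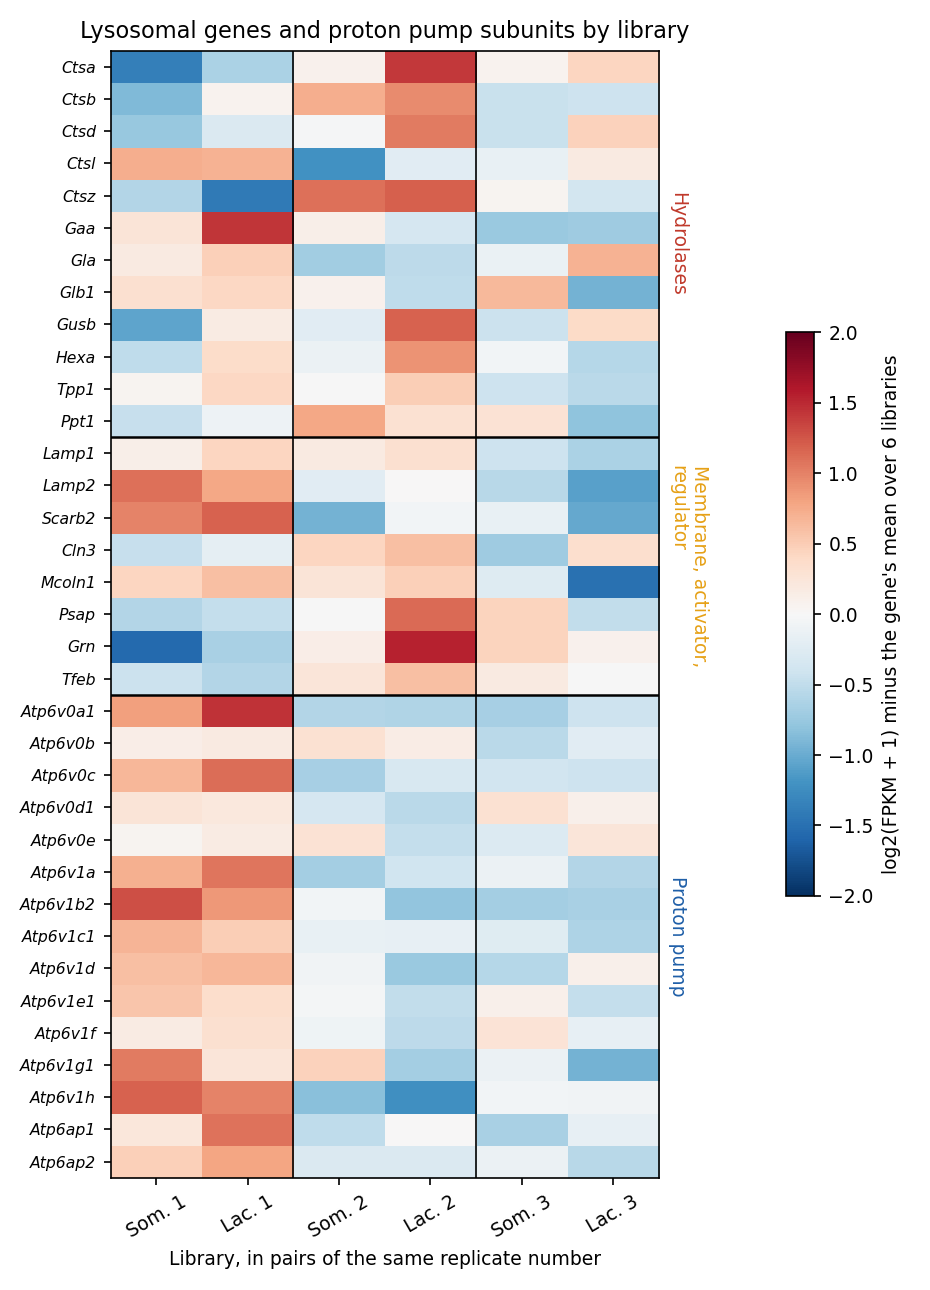
Each row is 1 of the 35 genes and each column 1 library (Som., somatotrope; Lac., lactotrope), paired by replicate number, with colour for log2(FPKM + 1) minus the gene's mean over the 6 libraries. Most proton pump rows are red in the 2 libraries numbered 1, while Ctsa, Ctsz and Grn are blue there and 7 of the 12 hydrolases are deepest red in lactotrope 2.

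The hydrolases were among the more abundant transcripts of both cell types. Their median percent rank among the tested genes ran from 91.1 to 97.6 over the 6 libraries. Ctsd, the aspartic protease cathepsin D (chr7:149561821-149573775, − strand, mm9), was the most abundant on average, at 112, 187 and 139 FPKM in somatotropes and 155, 390.2 and 261 in lactotropes. Ctsb, the cysteine protease cathepsin B (chr14:63741299-63764760, + strand), stood at 92.9, 284 and 126 FPKM in somatotropes and 181, 331 and 129 in lactotropes. Ctsz, the carboxypeptidase cathepsin Z (chr2:174252995-174264493, − strand), stood at 99.6, 322 and 155 FPKM in somatotropes and 55.7, 342 and 116 in lactotropes. All 3 were highest in lactotrope 2, and the cell types overlapped for each. At the other end was Gla, the alpha-galactosidase that removes terminal galactose from glycolipids, at 3.13, 1.28 and 2.35 FPKM in somatotropes and 4.10, 1.54 and 4.97 in lactotropes.

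Ctsa, cathepsin A, a carboxypeptidase that also protects beta-galactosidase and neuraminidase (chr2:164658373-164666532, + strand), was listed at 15.95, 45.3 and 44.9 FPKM in somatotropes and 27.1, 115 and 58.1 in lactotropes. Both libraries numbered 1 lay below the other 4, and lactotrope 2 was the highest. Among the hydrolases it had the widest range, 7.23-fold from the lowest to the highest library. Gusb, the beta-glucuronidase of glycosaminoglycan breakdown (chr5:130464891-130478698, − strand), was listed at 8.06, 14.97 and 12.9 FPKM in somatotropes and 20.02, 41.5 and 23.5 in lactotropes. Every lactotrope library was above every somatotrope library, which held for no other of the 35 genes and for 1.15% of the genes tested. Grouped by cell type, Gusb had means of 11.97 ± 3.54 FPKM in somatotropes and 28.3 ± 11.5 in lactotropes (SD, n = 3 each).

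A different pattern was seen for 2 hydrolases that were highest in the libraries numbered 1. Ctsl, the cysteine protease cathepsin L (chr13:64464522-64471614, − strand), was listed at 94.98, 24.1 and 51.6 FPKM in somatotropes and 93.2, 48.7 and 64.96 in lactotropes. Gaa, the acid alpha-glucosidase that degrades glycogen (chr11:119129281-119147012, + strand), was listed at 63.6, 57.6 and 31.3 FPKM in somatotropes and 145, 41.7 and 32.1 in lactotropes. For both genes the 2 libraries numbered 1 lay above the other 4, as they did for 57.7% of the genes tested. The remaining hydrolases ranged more narrowly than Ctsl and Gaa. Hexa, the alpha subunit of beta-hexosaminidase, ran from 45.2 to 126 FPKM and Ppt1, which removes palmitate from proteins, from 29.2 to 89.8 FPKM. Tpp1, a tripeptidyl peptidase, ran from 13.7 to 29.1 FPKM. Glb1, the beta-galactosidase, ran from 4.17 to 14.7 FPKM, with its lowest value, like those of these other 3, in lactotrope 3.

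Among the membrane, activator and regulator genes, Psap and Lamp1 were the most abundant. Psap encodes prosaposin, the precursor of the saposins that present sphingolipids to their hydrolases, and stood at 154, 229.8 and 316 FPKM in somatotropes and 166, 512 and 165 in lactotropes. Grn encodes progranulin, a secreted and lysosomal glycoprotein whose transcript is high in macrophages and microglia (chr11:102291636-102298123, + strand), and stood at 14.2, 47.8 and 60.03 FPKM in somatotropes and 27.4, 129 and 46.5 in lactotropes. Both were lowest in somatotrope 1 and highest in lactotrope 2, and Grn had the widest range of the 35 genes, 9.06-fold. The structural membrane proteins did not share that order. Lamp1 stood at 171, 179 and 118 FPKM in somatotropes and 214, 197 and 101 in lactotropes, a range of 2.11-fold with its lowest value in lactotrope 3. Lamp2, needed for the fusion of autophagosomes with lysosomes (chrX:35758241-35809632, − strand), stood at 91.01, 35.5 and 28.3 FPKM in somatotropes and 72.04, 41.97 and 19.3 in lactotropes. Scarb2, the receptor that carries glucocerebrosidase to lysosomes (chr5:92872899-92934634, − strand), stood at 36.7, 8.85 and 16.03 FPKM in somatotropes and 41.9, 17.3 and 8.30 in lactotropes. Lamp2 and Scarb2 were highest in the 2 libraries numbered 1. The calcium-permeable channel gene Mcoln1 ran from 3.93 to 20.1 FPKM and Cln3, a membrane protein mutated in juvenile Batten disease, from 3.05 to 9.13 FPKM. Tfeb itself was low, at 2.23, 4.15 and 3.95 FPKM in somatotropes and 1.92, 5.62 and 3.34 in lactotropes, and both libraries numbered 1 lay below the other 4.

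The proton pump genes stood at a median percent rank of 91.6 to 96.1 in the 6 libraries. Within the V0 sector, Atp6v0b, a proteolipid of the rotating ring, was listed at 157, 176 and 97.4 FPKM in somatotropes and 162, 159 and 122 in lactotropes, a range of 1.81-fold. Atp6v0e, a small membrane subunit, had the narrowest range of the 35 genes, 1.70-fold from 57.9 to 98.2 FPKM. Atp6v0d1, which joins the ring to the central stalk, ran from 15.8 to 29.3 FPKM. On the scale of the deposited FPKM these 3 genes varied by at most 1.86-fold. Under median-ratio scaling, which lowers replicate 1 relative to the others, the log2 differences of replicate 1 from the mean of replicates 2 and 3 were -0.89, -0.96 and -0.74 for Atp6v0b, Atp6v0e and Atp6v0d1. Atp6v0a1, the large subunit that holds the proton half-channels (chr11:100870766-100925031, + strand), was listed at 16.8, 5.69 and 5.29 FPKM in somatotropes and 26.2, 5.59 and 6.55 in lactotropes. Atp6v0c, the main proteolipid of the ring, was listed at only 6.83, 2.09 and 2.78 FPKM in somatotropes and 9.66, 2.93 and 2.70 in lactotropes. Both were highest in the 2 libraries numbered 1. The reference annotation holds processed pseudogene copies of Atp6v0c, and the sources used here do not say how reads shared with them were assigned, which leaves its level uncertain.

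In the V1 sector the levels were uneven, although the assembled sector needs its subunits in fixed proportions. Atp6v1g1, a stalk subunit (chr4:63205799-63211735, + strand), was listed at 183, 122 and 81.9 FPKM in somatotropes and 105, 55.3 and 45.7 in lactotropes. Its somatotrope library was above the lactotrope library of the same number by 1.74-, 2.21- and 1.79-fold in replicates 1 to 3, while the cell types overlapped because lactotrope 1 was above somatotrope 3. Atp6v1f, another stalk subunit, ran from 61.2 to 111 FPKM. Atp6v1b2, the B subunit of the catalytic head (chr8:71612635-71637616, + strand), was listed at 128, 50.3 and 32.3 FPKM in somatotropes and 95.9, 29.6 and 33.00 in lactotropes. Its catalytic partner Atp6v1a (chr16:44085517-44139132, − strand) was listed at 19.9, 7.01 and 10.8 FPKM in somatotropes and 25.98, 8.71 and 7.55 in lactotropes. In every library the B subunit transcript was thus above that of the A subunit. Atp6v1h, the regulatory subunit that governs coupling of the sectors (chr1:5073254-5152630, + strand), was listed at 82.8, 19.7 and 34.4 FPKM in somatotropes and 72.6, 14.8 and 34.03 in lactotropes. Both libraries numbered 1 were above the rest, and both numbered 2 were the lowest. The remaining stalk genes Atp6v1c1, Atp6v1d and Atp6v1e1 ran from 16.5 to 41.9, from 21.1 to 57.7 and from 22.5 to 47.7 FPKM, each highest in a library numbered 1.

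The accessory proteins of the pump were abundant as well. Atp6ap1, which takes part in assembly of the V0 sector (chrX:71542436-71550060, + strand), was listed at 111, 66.3 and 60.4 FPKM in somatotropes and 202, 95.6 and 84.9 in lactotropes. Lactotropes were 1.82-, 1.44- and 1.40-fold above the somatotropes of the same number. Atp6ap2, the (pro)renin receptor, was listed at 67.1, 39.00 and 44.1 FPKM in somatotropes and 83.7, 39.2 and 32.4 in lactotropes, with no shared direction over the pairs.

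**Figure D2:**
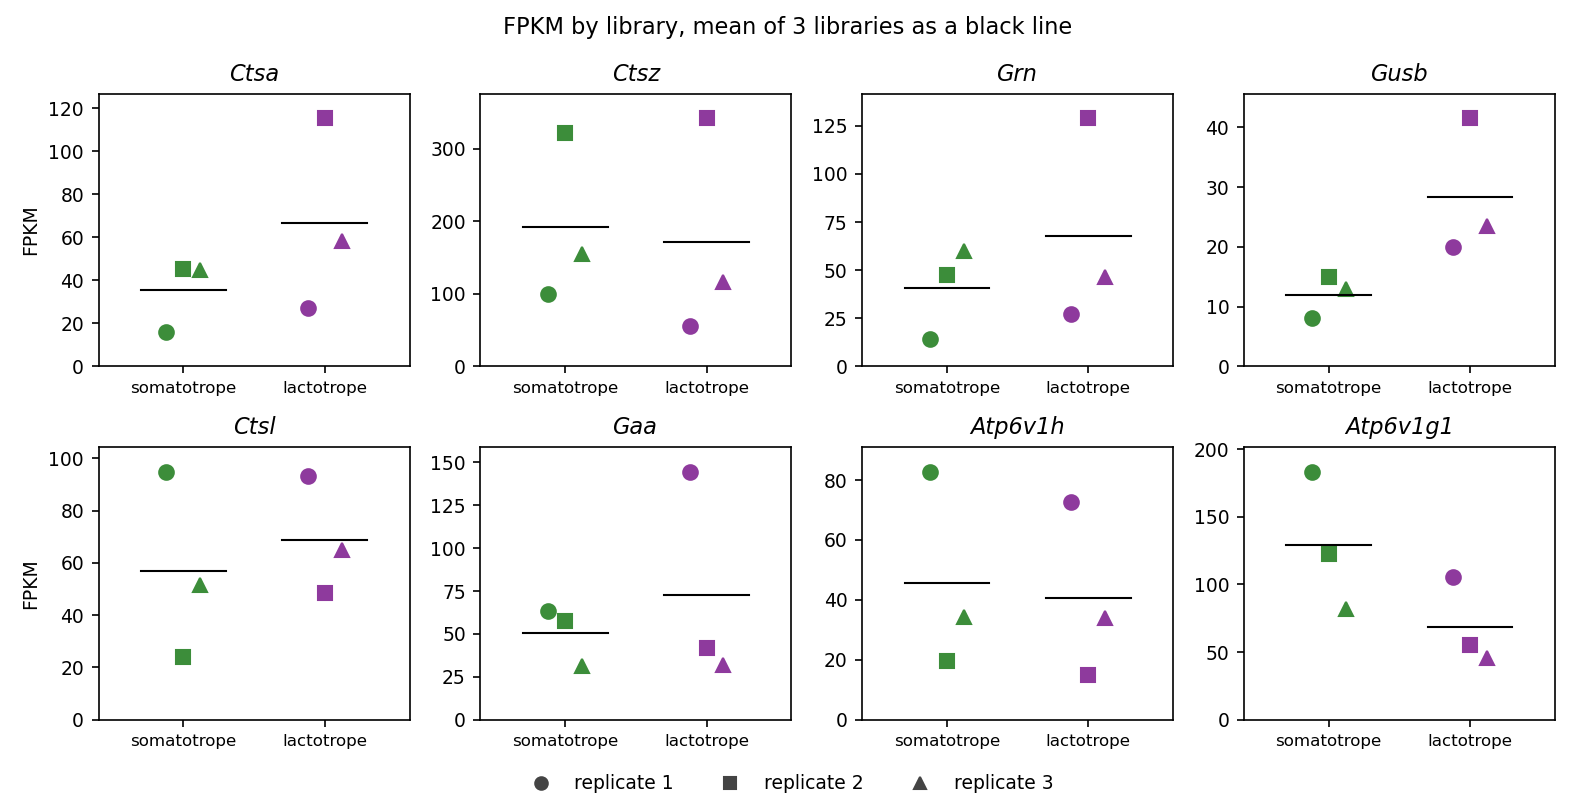
FPKM of 8 genes by cell type, with a marker for each library by replicate number and a black line for the mean of 3 libraries. Gusb is the gene whose lactotrope libraries all lie above the somatotrope libraries, Ctsa, Ctsz and Grn have both replicate 1 libraries (circles) at the bottom, and Ctsl, Gaa and Atp6v1h have them at the top.

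The first comparison, which the design of the study sets up, was between somatotropes and lactotropes. No member was called between them: limma with Benjamini-Hochberg adjustment over the 11642 genes called 0 of 35 members, and 0.0% of all genes. At an unadjusted p under 0.05 it gave 0 of the 35 members and 0.962% of all genes. With the replicate number as a block, limma again called 0 members after adjustment, and 5 had an unadjusted p under 0.05, beside 10.9% of all genes. These 5 were Atp6v1g1 with higher values in somatotropes (7.17% of all genes on that side), and Gusb, Ctsd, Ctsa and Atp6ap1 with higher values in lactotropes (3.75% of all genes). The smallest adjusted p among members with the block was 0.282 for Gusb, whose adjusted p over all alternatives tried lay between 0.143 and 1.00. In bulk RNA of sorted cells, fewer cells of a type and less RNA per cell cannot be told apart.

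On the log2(FPKM + 1) scale, which understates the change of low genes, the 12 hydrolases had a median somatotrope minus lactotrope difference of -0.42, with 3 positive and 9 negative values. The median over all genes tested was 0.18. The differences of Gusb (-1.15, SE 0.58), Ctsa (-0.81, SE 0.66) and Ctsd (-0.81, SE 0.59) were the most negative, and that of Glb1 (0.70, SE 0.63) the most positive. Ctsa, Ctsb, Ctsd, Gla and Gusb, 5 of the 12, had higher values in the lactotrope library of every pair, as 11.2% of all genes did, and no hydrolase had higher values in the somatotrope library of every pair. The lactotrope to somatotrope ratio of Gusb was 2.48, 2.77 and 1.82 in pairs 1 to 3, that of Ctsa 1.70, 2.54 and 1.29, and that of Ctsd 1.38, 2.08 and 1.88. The hydrolase median difference by pair was -0.41, -0.35 and -0.04, so it was close to 0 in replicate 3. It was -0.21 without lactotrope 2 and -0.62 without lactotrope 3.

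Leukocyte markers ran the same way as the hydrolases. Of the 21 markers tested, 20 had higher values in the lactotrope library of every pair, beside 11.2% of all genes. The median difference of the 21 was -1.51. Cd74 was listed at 224, 4897 and 2252 FPKM in somatotropes and 581, 9644 and 3085 in lactotropes, and H2-Ab1 at 57.6, 2605 and 1045 and 147, 3546 and 1273. Lactotrope 2 was the highest library for 20 of the 23 markers with a row, for 7 of the 12 hydrolases, for 4 of the 8 membrane, activator and regulator genes, for 0 of the 15 pump genes and for 7.65% of all genes. Ordered by the leukocyte marker mean, the libraries ran from somatotrope 1 through lactotrope 1, somatotrope 3, somatotrope 2 and lactotrope 3 to lactotrope 2. Ctsa followed this order exactly, the only member that did, beside 0.713% of all genes. The marker list itself holds Cd68, a lysosomal membrane glycoprotein of macrophages. When the mean of the leukocyte markers entered as a covariate, an alternative chosen after seeing the data, the hydrolase median difference was -0.29 and that of all genes -0.28. With it, the differences of Ctsa (0.04), Ctsb (0.07) and Grn (0.31) were positive, those of Gusb (-0.73) and Ctsd (-0.35) stayed negative, and none was called. The marker mean was lowest in both libraries numbered 1 and higher in the lactotrope library of every pair. The covariate therefore cannot be told apart from replicate number or cell type, and the part of leukocytes was not tested.

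For the membrane, activator and regulator genes the median difference was -0.08, with 2 positive and 6 negative values, and Grn (-0.65, SE 0.71) was the most negative. That median turned to 0.16 without lactotrope 2. For the 15 pump genes it was 0.05, with 9 positive and 6 negative values, and it changed sign under 2 of the 3 scalings tried (-0.15 with median-ratio scaling and -0.07 with quantile normalization) and without somatotrope 1 (-0.17) or lactotrope 2 (-0.10). It was 0.27 without somatotrope 2, 0.18 without somatotrope 3, 0.44 without lactotrope 1 and -0.42 with the leukocyte covariate. Within the pump, the 8 V1 genes had a median of 0.22 and the 5 V0 genes one of -0.07. Atp6v0d1, Atp6v1c1, Atp6v1e1, Atp6v1g1 and Atp6v1h had higher values in the somatotrope library of every pair, 5 of 15 beside 22.9% of all genes. Atp6ap1 (-0.62, SE 0.58) was the single pump gene with higher values in the lactotrope library of every pair, and Atp6v1g1 had the largest positive difference of the 35 (0.92, SE 0.58).

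The ratio of summed hydrolase FPKM to summed pump FPKM is not changed by a scaling with 1 factor per library, although quantile normalization would change it. In somatotropes it came to 0.538, 1.44 and 1.11, and in lactotropes to 0.746, 2.51 and 1.21. The lactotrope library was above the somatotrope library in each pair, and the 2 libraries numbered 1 were below the other 4. As a ratio over chosen genes it was not tested.

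**Figure D3:**
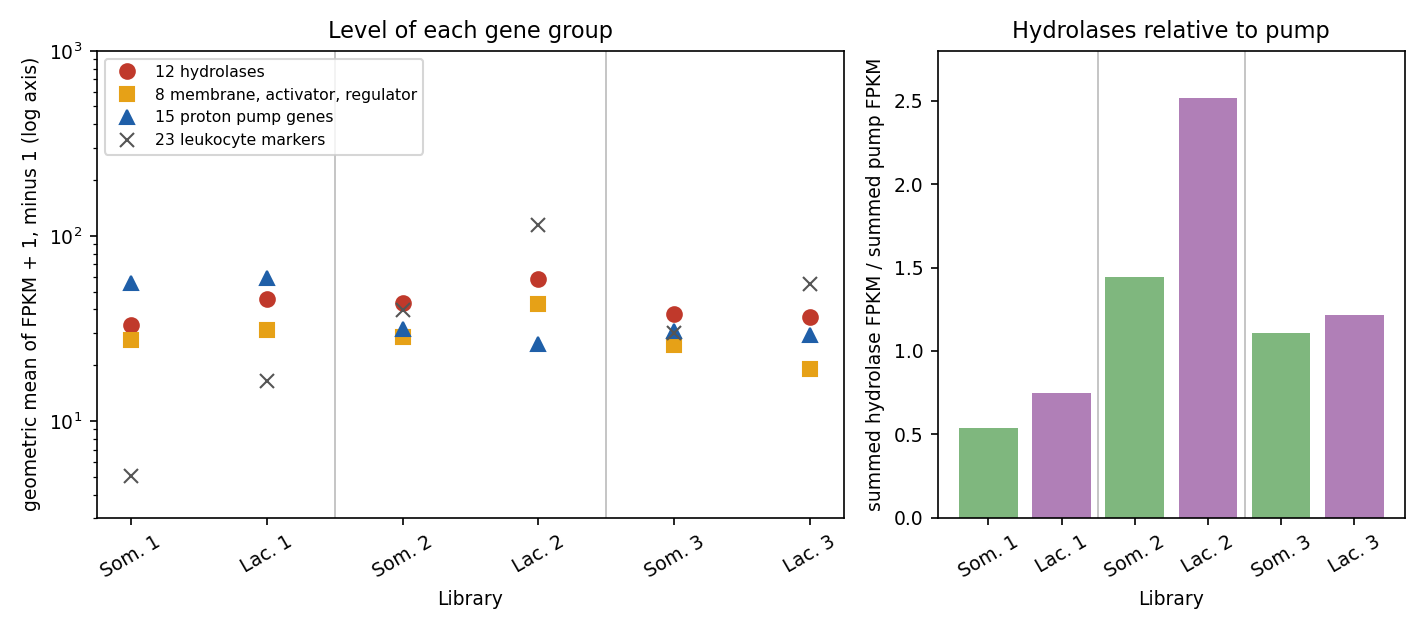
Left, geometric mean of FPKM + 1, minus 1, on a log axis for the 3 gene groups and the leukocyte markers in each library (Som., somatotrope; Lac., lactotrope); right, summed hydrolase FPKM divided by summed pump FPKM, with green bars for somatotropes and purple bars for lactotropes. Pump genes stand near 56 to 59 in the libraries numbered 1 and 26 to 31 in the others, leukocyte markers are lowest in those numbered 1, and the ratio peaks at 2.51 in lactotrope 2.

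The second comparison was between replicate numbers, each of which has 1 library of either cell type. Here limma's moderated F test, with the cell type in the fit, called 15 of 35 members and 46.7% of all genes at an adjusted p under 0.05, so the members' share was close to that of all genes. The count of members was 6 with a pseudocount of 0.1, beside 2109 of 11642 genes. With no filter on low values it was 1 (Atp6v1h), beside 1269 of 19557 genes. The direction is that of replicate 1 minus the mean of replicates 2 and 3 on the log2(FPKM + 1) scale, which for all genes had the median of 1.00 given above. Adjusted p-values beside such a difference are those of the F test, which asks for any difference among the replicate numbers. The difference itself was not tested, and called higher or lower means a call with that sign. Of the 35 members, 11 were called higher in replicate 1, beside 41.1% of all genes, and 4 were called lower, beside 5.54%. The 4 that were lower against the general shift were Ctsa, Ctsb, Ctsz and Grn.

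Ctsz differed by -1.49 between replicate 1 and the others (limma F test, adjusted p = 0.0084) and Ctsa by -1.50 (adjusted p = 0.014). By the same test Grn differed by -1.65 (adjusted p = 0.021) and Ctsb by -0.60 (adjusted p = 0.032). For Ctsa, Ctsz and Grn both libraries numbered 1 lay below all others, as for 4.49% of all genes. Ctsb differed otherwise: both of its libraries numbered 2 were high and lactotrope 1 was above lactotrope 3. For Ctsb, replicate 2 minus replicate 1 was 1.23 and replicate 3 minus replicate 1 was -0.03. Over 15 alternatives the adjusted p of Ctsz lay between 0.0009 and 0.08 and that of Ctsa between 0.001 and 0.128. That of Grn lay between 0.00021 and 0.144, and that of Ctsb between 0.014 and 0.158. Leukocyte markers moved in the same direction, with a median of -3.07 and 18 of 21 called, all lower in replicate 1. Of 9 stem and folliculostellate markers tested, 4 were called, all lower in replicate 1, with a median of -1.08 over the 9. Those with a row summed to 291, 2687 and 1270 FPKM in somatotropes and 184, 782 and 179 in lactotropes, so lactotrope 3 was as low as lactotrope 1. Erythroid markers summed to 38.3, 107 and 5877 FPKM in somatotropes and 7.11, 424 and 4942 in lactotropes, so they were highest in the 2 libraries numbered 3, and Hba-a1 differed by -6.09 (adjusted p = 0.0030, limma). The part of these cells in the result was not tested. Without somatotrope 1 or without lactotrope 1 the fit called 0 members, and 13 and 180 genes in all, and replicate 1 then rested on 1 library.

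The pump genes moved with the general shift. All 15 had positive differences, of which 5 stayed positive under median-ratio scaling, with a median of 0.96 beside 1.00 for all genes. The F test called 7 of the 15, beside 46.7% of all genes, and all 7 were higher in replicate 1, beside 41.1%. The 7 of 15 are close to the share of all genes. They were Atp6v0a1, Atp6v0c, Atp6v1a, Atp6v1b2, Atp6v1g1, Atp6v1h and Atp6ap1. Both libraries numbered 1 lay above all others for 10 of the 15, beside 57.7% of all genes. Atp6v1h differed by 1.64 (adjusted p = 0.0072, between 0.00014 and 0.078 over 15 alternatives), Atp6v1b2 by 1.62 (adjusted p = 0.011) and Atp6v0a1 by 1.70 (adjusted p = 0.014). Under median-ratio scaling, which left a median of 0.10 over all genes, the pump median turned to -0.17 and no pump gene was called. Atp6v1h was the pump gene still called under quantile normalization and after rescaling without Gh and Prl, and it kept a positive difference under all 3 scalings, 0.52 under median-ratio scaling.

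Ctsl and Gaa among the hydrolases, and Lamp2 and Scarb2 among the membrane genes, were also called as higher in replicate 1, by 1.06, 1.26, 1.40 and 1.63. None of these 4 was called under any of the 3 scalings, and the difference of Ctsl turned to -0.07 under median-ratio scaling. Over the whole groups, the hydrolases had a median of -0.26 and the membrane, activator and regulator genes one of -0.04, against 0.96 for the pump. Within each cell type, where replicate 1 is 1 library, the hydrolase median was -0.47 in somatotropes but 0.17 in lactotropes. The hydrolases as a group were thus not lower in replicate 1 in both cell types. The membrane, activator and regulator median was -0.04 and -0.03, and the pump median 0.87 and 1.05. Under median-ratio scaling the medians over both cell types were -1.38, -1.06 and -0.17 in the same order of groups. Of the members, 8 were then called, all lower in replicate 1: Ctsa, Ctsb, Ctsd, Ctsz, Gusb, Ppt1, Psap and Grn. That scaling called 9.09% of all genes, 3.5% as higher and 5.58% as lower in replicate 1. Quantile normalization called 9 members and 16.9% of all genes, with Atp6v1h higher (7.73% of all genes on that side) and Ctsa, Ctsb, Ctsd, Ctsz, Gusb, Ppt1, Grn and Tfeb lower (9.17%). Rescaling without Gh and Prl called 6 members and 22.4% of all genes, with Atp6v1h higher (17.4%) and Ctsa, Ctsb, Ctsd, Ctsz and Grn lower (5.07%).

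The 8 genes with TCACGTGA in the promoter window did not share a pattern on the scale of the deposited FPKM. Ctsa was called lower in replicate 1 (5.54% of all genes on that side) and Atp6v1a higher (41.1%), while the other 6 were not called. Between cell types their differences ran from -0.81 (Ctsa and Ctsd) to 0.28 (Mcoln1). The replicate calls depended on scaling. Under median-ratio scaling the replicate 1 differences ran from -2.59 (Ctsa) to 0.27 (Atp6v1a), and all but that of Atp6v1a were negative. Ctsa and Ctsd were then called lower (5.58% of all genes on that side), and Atp6v1a was not called.

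**Figure D4:**
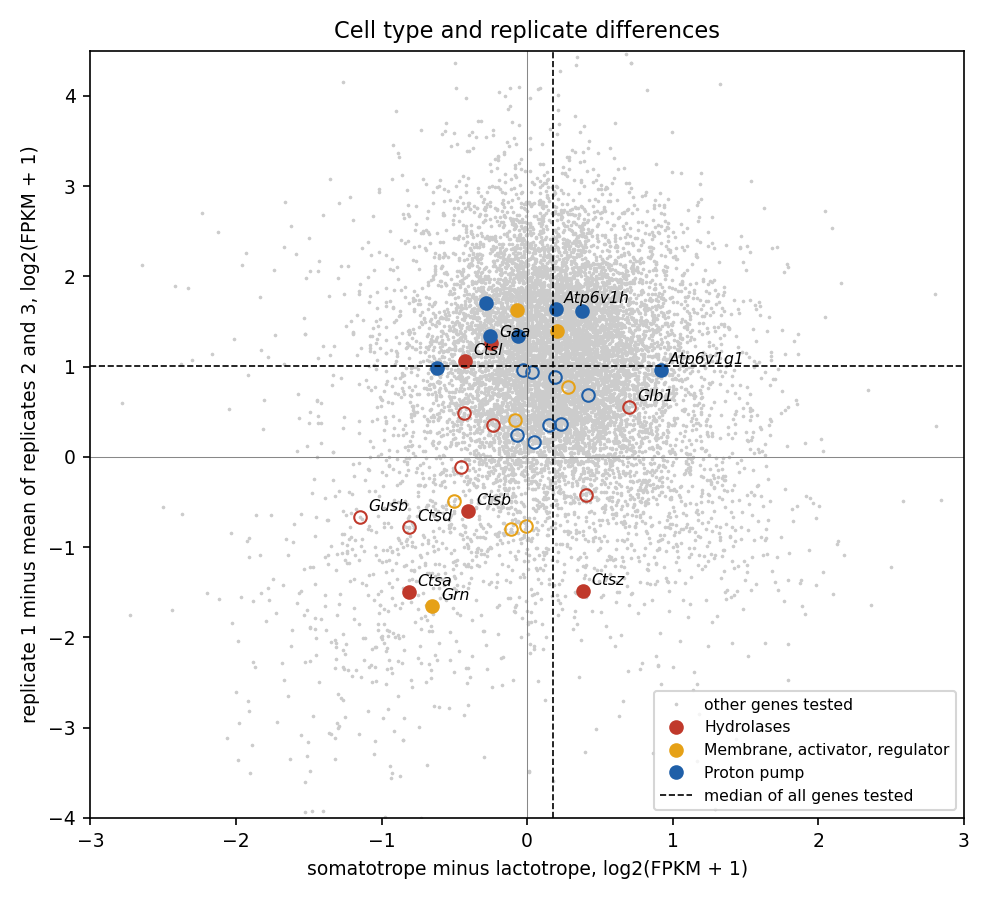
Each point is a gene tested, with the somatotrope minus lactotrope difference on the horizontal axis and replicate 1 minus the mean of replicates 2 and 3 on the vertical axis, both in log2(FPKM + 1); filled members were called by the replicate F test, open members were not, and dashed lines mark the medians of all genes (0.18 and 1.00). Pump genes gather between 0 and the upper part of the vertical axis, and Ctsa, Ctsz and Grn stand below -1.4; both differences come from the same 6 libraries.

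Further genes of the pathway were read from lists of other lysosomal enzymes, other membrane and delivery proteins, other pump genes and lysosomal nutrient sensing. No gene of these lists was called between cell types. Their counts between replicate numbers stand beside 46.7% of all genes called, 41.1% as higher and 5.54% as lower in replicate 1. Of the 30 other enzymes tested, 8 had positive and 22 negative somatotrope minus lactotrope differences, with a median of -0.35. The smallest unadjusted p belonged to Pla2g15, the lysosomal phospholipase A2, at 4.84, 6.55 and 5.13 FPKM in somatotropes and 8.34, 26.1 and 13.3 in lactotropes, each lactotrope library above its pair (limma, adjusted p = 1.00). Between replicate numbers 10 of the 30 were called, 4 higher and 6 lower in replicate 1, and under median-ratio scaling 0 higher and 7 lower. Ctss, cathepsin S, a protease of antigen-presenting cells, was among the latter, at 23.6, 268 and 242 FPKM in somatotropes and 94.00, 998 and 424 in lactotropes (difference -3.08, adjusted p = 0.0037, limma). Ctsh, Ctsc and Lgmn, 3 further proteases, were called lower as well, by -2.70, -2.49 and -2.38. All 4 were lowest in somatotrope 1 and highest in lactotrope 2.

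Of the 20 other membrane and delivery genes, 7 were called higher and 1 lower in replicate 1, against 0 and 1 under median-ratio scaling. Their median cell type difference was -0.03. Igf2r, the large mannose 6-phosphate receptor, was listed at 2.65, 0.235 and 0.292 FPKM in somatotropes and 3.63, 0.128 and 0.00110 in lactotropes, and Gnptab, which makes the mannose 6-phosphate tag, at 4.41, 1.08 and 0.231 and 3.54, 2.78 and 0.00195. Both were highest in the 2 libraries numbered 1 and close to 0 in lactotrope 3. Of the 13 sensing genes tested, 6 were called higher in replicate 1 and 0 lower, against 0 of either under median-ratio scaling. The 6 of 13 are close to the share of all genes. Among the 6 were Mtor, the kinase that reads lysosomal nutrient signals, and its recruiters Rraga and Rragd.

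Among the other pump genes, isoforms of the same subunit did not all follow the same order over the libraries. Of the 12 tested, 7 were called higher in replicate 1 and 1 lower, against 0 and 2 under median-ratio scaling. The gene counted as lower was Tcirg1, the a3 isoform of the V0 large subunit that is prominent in osteoclasts and macrophages. It stood at 2.83, 10.8 and 2.86 FPKM in somatotropes and 4.28, 23.1 and 4.03 in lactotropes (adjusted p = 0.013, limma F test). Its replicate 2 minus replicate 1 was 1.90, but its replicate 3 minus replicate 1 was -0.03. Tcirg1 was thus highest in the 2 libraries numbered 2, whereas the a1 isoform Atp6v0a1 was highest in those numbered 1, as were 57.7% of all genes. Atp6v0e2, an isoform of Atp6v0e found mainly in neural tissue, was listed at 99.7, 26.9 and 39.5 FPKM in somatotropes and 85.8, 12.8 and 19.5 in lactotropes. Each somatotrope library was above its lactotrope pair, and the libraries numbered 1 were the highest (difference 1.98, adjusted p = 0.007, limma). Dmxl2 and Wdr7, the subunits of rabconnectin that aid assembly of the pump on synaptic and secretory vesicles, were above 7 FPKM in the libraries numbered 1 and below 2 FPKM elsewhere. Atp6v1g2, the neuronal stalk isoform, was listed at 3.57, 4.13 and 7.42 FPKM in somatotropes and 3.38, 1.06 and 0 in lactotropes, a pattern over the pairs shared with the member Atp6v1g1. Its difference between cell types was 1.48 (SE 0.76, limma, adjusted p = 1.00).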

How the data were processed

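Polyadenylated RNA of sorted cells was amplified (NuGen Ovation V2), per the labels' protocols. The submitters' processing notes name TopHat, edgeR, bcl2fastq 2.17.1.14 and mm9. The FPKM values come from 1 table deposited by the authors, whose 30399 rows are transcripts. The 889 rows without a symbol were left out here. The sources used here do not say how reads were counted. FPKM is relative to the library total, so abundant hormone transcripts can lower other values. Gh and Prl made up 30.8%, 14.4% and 31.4% of summed FPKM in somatotropes and 47.6%, 15.4% and 55.7% in lactotropes. The median FPKM of tested genes was 8.05, 4.23 and 3.61 in somatotropes and 7.88, 3.93 and 2.49 in lactotropes, so it did not follow that share. Summed FPKM ran from 194873 in somatotrope 2 to 418770 in lactotrope 1. The source of these differences was not tested. Replicate libraries were not duplicates: at most 2.35% of genes were within 1% between libraries. Marker genes named are among the 2 most abundant of their list, except Cd3e, Cd79a and Cd68.

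The test was run on log2(FPKM + 1) of the 11642 genes whose mean reached 1 FPKM, by limma 3.58.1 in R 4.3.3 (intensity trend, Benjamini-Hochberg at 0.05). Simulated data were run only through the block fit and the replicate F test, with noise below that fitted here. They do not show how the reported cell type fit behaves. Libraries of the same number deviated together from their group means (correlations over genes of 0.763, 0.613 and 0.341), and the replicate block is the alternative fit. Correlations between libraries of different numbers were not computed, so the pairing by the numbers in the titles was not tested. The SEs given for cell type differences come from the fit without the block and ignore this pairing. With the block the SE was 0.29 for Gusb and 0.26 for Atp6v1g1, against 0.58 for each without it. All members may be named. From each other list up to 4 genes by smallest p per test are named, some of them without values. The members and lists were chosen with earlier results of these data known. Alternatives were other pseudocounts, filters, scalings, row sums, array weights, the block and each library left out.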

Additional observations from a re-analysis of the deposited data

How the results depend on the processing

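Between cell types, 0 members were called in the 18 alternatives to the reported fit. The number of genes called was 0 except with array weights (9, with an estimation of the weights that stopped before convergence in 1 fit) and with a library left out (0 to 3). With the replicate block 0 genes and 0 members were called. The hydrolase median stayed negative in all, at -0.21 with replicates 2 and 3 only and between -0.62 and -0.21 with 1 library left out. The pump median was -0.15 with median-ratio scaling, 0.40 with array weights, -0.42 with the leukocyte covariate and 0.19 with replicates 2 and 3 only, and lay between -0.17 and 0.44 with 1 library left out.

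Between replicate numbers, 2109 of 11642 genes were called at a pseudocount of 0.1 and 1269 of 19557 without the filter. A filter at 5 FPKM left 6146 genes, of which 3293 were called. The count was 1058 with median-ratio scaling, 1967 with quantile normalization and 2610 after rescaling without Gh and Prl. In the same order, the count of members was 6, 1, 15 of 32 left, 8, 9 and 6. With 1 library left out, 13 to 8528 genes and 0 to 17 members were called; 9 were called without somatotrope 2 or without lactotrope 2. Median-ratio scaling turned the replicate differences of Ctsl (-0.066), Atp6v1g1 (-0.17) and Atp6ap1 (-0.15). The cause of these changes was not tested.

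The sign of many cell type differences depended on the setting, also for members far from 0 such as Ctsa (-0.81 as reported), and none was called. The leukocyte covariate, chosen after seeing the data, turned Ctsa (0.041), Ctsb (0.074), Lamp2 (-0.41), Psap (0.42), Grn (0.31), Tfeb (0.43), Atp6v0d1 (-0.10), Atp6v0e (-0.068), Atp6v1b2 (-0.44), Atp6v1c1 (-0.22), Atp6v1h (-0.77) and Atp6ap2 (-0.42). Replicates 2 and 3 only, likewise chosen, turned Gaa (0.21), Lamp1 (0.037) and Atp6v1a (0.095). Array weights turned Ctsz (-0.38), Gaa (0.12), Lamp2 (-0.18), Mcoln1 (-0.25), Atp6v0a1 (0.017) and Atp6v1d (0.43). A pseudocount of 0.1 turned Tfeb (0.0034). Median-ratio scaling turned Atp6v0d1 (-0.041), Atp6v0e (-0.15), Atp6v1c1 (-0.0021) and Atp6ap2 (-0.16), quantile normalization the same 4 (-0.039, -0.065, -0.016 and -0.18), and rescaling without Gh and Prl Atp6ap2 (-0.0071). With 1 library left out, these ranges crossed 0: Ctsl -0.90 to 0.073, Ctsz -0.22 to 1.08, Gaa -0.67 to 0.40, Lamp1 -0.42 to 0.12, Lamp2 -0.29 to 0.64, Scarb2 -0.60 to 0.50, Mcoln1 -0.39 to 0.65, Psap -0.38 to 0.43, Tfeb -0.30 to 0.29, Atp6v0a1 -0.77 to 0.36, Atp6v0b -0.24 to 0.18, Atp6v0c -0.65 to 0.24, Atp6v0d1 -0.081 to 0.36, Atp6v0e -0.17 to 0.20, Atp6v1a -0.43 to 0.46, Atp6v1b2 -0.17 to 0.91, Atp6v1c1 -0.10 to 0.49, Atp6v1d -0.40 to 0.30, Atp6v1h -0.37 to 0.75 and Atp6ap2 -0.23 to 0.44. Depth cannot be read from the FPKM, so how far it limits low members such as Gla, Tfeb and Atp6v0c is unknown.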

Other observations

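Some members had more than 1 transcript row. Lamp2 had a second row at 66.4, 27.6 and 19.9 FPKM in somatotropes and 47.8, 34.4 and 14.2 in lactotropes (replicates 1 to 3), in the same order over the libraries as the row described above, and it was lower in each library. Taking the sum of all rows of a gene left the call of Lamp2 between replicate numbers in place.

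Markers of stem and folliculostellate cells, which lie among the hormone cells, ran opposite to the hydrolases between cell types. Of 9 such markers tested, 8 had higher values in the somatotrope library of every pair, beside 22.9% of all genes, and none was called. Mia1, listed under Mia, stood at 127, 1432 and 843 FPKM in somatotropes and 64.9, 453 and 123 in lactotropes, and Aldoc at 67.6, 926 and 175 and 40.9, 155 and 8.49. Both were highest in somatotrope 2, where 1 of the 12 hydrolases was highest.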
